A study of Mus musculus with 12 samples.

Results

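The 10 genes described here, out of 24328 gene symbols in the count table, encode the parts that turn cytosolic protein into peptides and load them onto MHC class I molecules: the immunoproteasome subunits Psmb8, Psmb9 and Psmb10, the proteasome activator subunits Psme1 and Psme2, the peptide transporter subunits Tap1 and Tap2, the loading chaperones Tapbp and Tapbpl, and the trimming peptidase Erap1. They were taken from the table by symbol, all 10 were found, and all 10 were among the 12695 genes that passed the filter on low counts. RNA came from microglia, the macrophages that live in brain tissue, which had been purified by FACS from BALB/c mice (wild type), with 4 mice in each of 3 groups. Control mice were untransplanted. Syngeneic recipients were lethally irradiated and given 5000000 bone marrow cells with 300000 T cells from a genetically matched donor. Allogeneic recipients had the same irradiation and cell numbers from a mismatched donor, a model of graft-versus-host disease (GvHD), in which T cells of the graft damage the recipient's organs. Both transplanted groups were taken on day 14, the peak of GvHD per the labels. The sources used here do not give the donor strain or the age of the mice. Irradiation, transferred cells and time after transplantation all separate the syngeneic from the control group and cannot be told apart.

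Proteasomes are barrel-shaped proteases whose cutting is done by catalytic subunits named beta 1, beta 2 and beta 5. Under interferon-gamma, cells make the inducible versions Psmb9, Psmb10 and Psmb8, which take the places of the constitutive Psmb6, Psmb7 and Psmb5 in newly built particles and favour peptides with ends that fit class I molecules. The PA28 activator, a ring of Psme1 and Psme2 proteins, opens the barrel. Peptides then pass through the Tap1-Tap2 transporter into the endoplasmic reticulum, where tapasin (Tapbp) holds the empty class I molecule beside the transporter and selects tight binders, the tapasin-related protein (Tapbpl) edits peptides away from the transporter, and Erap1 trims peptides that are too long. Resting microglia are known for low class I presentation and raise it in inflamed brain.

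Start regions were searched because the 10 genes rose together in allogeneic microglia and the interferon elements known for this pathway lie in such regions. Those of 4 genes are shown, and they include every gene with a match to an interferon element, so they do not stand for the rest. Sequences are from RefSeq (build GRCm38.p6), whose table held 8 of the 10 genes and neither Tap2 nor Tapbpl. Each shows 250 bases before the annotated start and the first 30 after it, 5′ to 3′ on the gene's strand. Capitals mark the interferon-stimulated response element core GAAANNGAAA, the gamma-activated site TTCNNNGAA and the GC box GGGCGG, each searched on both strands, and none of the matches shown overlaps another.
Tap1 (chr17:34187306-34187585, plus strand): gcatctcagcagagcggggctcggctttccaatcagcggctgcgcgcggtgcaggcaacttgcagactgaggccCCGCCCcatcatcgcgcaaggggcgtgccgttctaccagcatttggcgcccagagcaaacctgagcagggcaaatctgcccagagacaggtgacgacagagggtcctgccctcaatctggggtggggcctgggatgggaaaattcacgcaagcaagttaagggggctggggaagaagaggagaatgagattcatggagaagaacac
Psmb8 (chr17:34197945-34198224, plus strand): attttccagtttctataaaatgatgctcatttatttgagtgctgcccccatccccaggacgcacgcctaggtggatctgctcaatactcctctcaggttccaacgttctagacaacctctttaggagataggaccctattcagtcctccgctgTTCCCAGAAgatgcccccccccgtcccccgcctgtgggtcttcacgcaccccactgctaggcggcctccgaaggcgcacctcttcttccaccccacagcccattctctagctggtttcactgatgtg
Psme1 (chr14:55578244-55578523, plus strand): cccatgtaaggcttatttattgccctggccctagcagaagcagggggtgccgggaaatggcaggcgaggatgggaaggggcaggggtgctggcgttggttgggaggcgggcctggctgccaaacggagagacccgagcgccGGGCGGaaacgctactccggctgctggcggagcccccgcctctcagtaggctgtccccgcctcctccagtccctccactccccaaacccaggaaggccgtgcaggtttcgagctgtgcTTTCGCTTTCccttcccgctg
Erap1 (chr13:74639603-74639882, plus strand): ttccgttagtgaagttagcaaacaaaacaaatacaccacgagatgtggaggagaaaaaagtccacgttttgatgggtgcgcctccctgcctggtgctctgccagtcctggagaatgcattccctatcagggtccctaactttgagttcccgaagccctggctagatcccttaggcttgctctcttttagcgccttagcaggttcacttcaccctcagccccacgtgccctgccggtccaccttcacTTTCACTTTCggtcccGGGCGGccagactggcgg
The response element core was found in 2 of the 8 genes, in Psme1 at positions 10 to 19 and in Erap1 at -4 to 6 from the start. At least 1 window of 300 bases held it in 3.99% of the 27025 genes in the table. The gamma-activated site letters were in 1 of the 8, Psmb8, at -97 to -89, against 9.55% of all genes. The GC box, bound by Sp1-type factors, was in 6 of the 8 against 38.2% of all genes. By window, of which there are 32851, the shares were 3.44%, 8.30% and 35.7%. Tap1 and Psmb9 face away from each other with 225 bases between their annotated starts, so the Tap1 stretch above is also the start region of Psmb9 read from the other strand. Psmb10 had no match, and none of the regions not shown held either interferon element. The matches found describe letters only.

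Counts summed to 32652208 to 45439607 in control libraries, 36422729 to 46126118 in syngeneic and 35559202 to 42641198 in allogeneic ones. Levels are in CPM, the usual unit for counts scaled to a common library total, as mean ± SD with n = 4 or library by library, and fold changes are on the log2 scale. Rose and fell are used for genes with an adjusted p under 0.05 in edgeR's quasi-likelihood test over all 12695 genes. The 10 microglia markers on the list summed to 47530 to 54260 CPM in control, 45680 to 48560 in syngeneic and 33180 to 34620 in allogeneic libraries, with none at 0, and 7 of the 10 fell in allogeneic against syngeneic. In syngeneic against control 6 of the 10 rose and 4 fell (26.4% and 25.6% of all genes), so the sums hide opposite changes. P2ry12 went from a mean of 12080 to 17290 CPM and Csf1r from 11490 to 3525. Blood-derived immune cells express immunoproteasome genes at rest, so their markers are given here. The 6 markers of engrafted macrophages, of which Lyz2, Apoe and Cybb are also made by microglia, summed to 2311 to 2935, 2870 to 4122 and 9059 to 11840 CPM in the same order. Of the 6, 5 rose in allogeneic against syngeneic and 5 in syngeneic against control, where Cybb went from a mean of 8.54 to 104.8 CPM. Apoe made up most of each sum and was at 2353 and 2347 CPM in control and syngeneic. The 8 monocyte markers summed to 9.915 to 17.4, 14.98 to 35.96 and 77.2 to 113 CPM, with 1 of 5 tested (Plac8) higher. The 7 NK and cytotoxic markers summed to at most 1.54 and 1.97 CPM in control and syngeneic and 21.6 to 36.3 in allogeneic libraries, with Ncr1, Gzma and Prf1 at 0 in all 3 groups. The 10 T cell markers summed to 1.699 to 3.98, 0.783 to 5.805 and 1.87 to 4.54 CPM, with Ifng at 0 throughout. Of the 3 tested, 0 were called in allogeneic against syngeneic, and Cd2 was higher in both transplanted groups than in control. Choroid plexus markers, 6 genes, stood at 12.9 to 96.7, 1092 to 1929 and 339 to 605 CPM, and dendritic cell markers, 7 genes, at 18.9 to 25.35, 2.805 to 5.17 and 5.405 to 8.89 CPM. Astrocyte and neuron markers, 8 genes, summed to 1.94 to 4.24, 27.3 to 49.25 and 24.9 to 42.3 CPM, and 7 of the 8 rose in syngeneic against control. Neutrophil markers, 6 genes, summed to 542.5 to 686, 321 to 365 and 334 to 397.5 CPM, with Csf3r the 1 of 3 tested that fell in that comparison and Mpo at 0 throughout. Csf3r alone carried these sums, with means of 587.5, 336.8 and 362.1 CPM, while S100a8 was at 2.51, 0.72 and 2.23. The part of these cells in the results below was not tested. In bulk RNA, more cells of a type and more RNA per cell cannot be told apart.

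All 10 genes rose in allogeneic against syngeneic microglia, by 0.79 to 1.99 on the log2 scale with a median of 1.29. Across all tested genes 10.1% were called higher and 6.38% lower in that comparison, and the median log2 fold change was -0.015. None of the 10 overlapped between the groups, where 20.7% of all genes did not. The genes split in syngeneic against control, where 6 rose and 3 fell (26.4% and 25.6% of all genes, 52.1% in all): the proteasome and activator genes and Erap1 were the 6 that rose, and Tap2, Tapbp and Tapbpl were the 3 that fell, of which Tapbp was at 0.07 and not called once trends with GC content and transcript length were removed. Groups were apart for 9 of the 10 in that comparison (50% of all genes). In allogeneic against control, 7 rose and 1 fell (28.2% and 29.1% of all genes), with Tap2 the 1 that fell (0.22 and not called with those trends removed), and 8 of the 10 did not overlap (53.8% of all genes). Allogeneic 3 was the highest allogeneic library for all 10 genes. Among allogeneic libraries it also had the highest sums of monocyte (112.6 CPM), NK (36.3 CPM) and microglia markers (34620 CPM), and the lowest of engrafted macrophage markers (9059 CPM). Its TMM factor was the lowest of all libraries (0.844, against 0.879 to 0.8925 in the other allogeneic ones), which raises its CPM of every gene by a small amount. The part of this in its rank was not tested. Single genes carried the monocyte and NK sums, Plac8 with a mean of 77.9 CPM and Klrk1 with 27.1 CPM in allogeneic libraries. The monocyte gene Ccr2 went from 8.01 CPM in syngeneic to 3.997 in allogeneic libraries and was not called between them. Without allogeneic 3 the rises in allogeneic against syngeneic were 0.71 to 1.87, all called. With library totals in place of TMM scaling, the median of all genes moved to -0.22, -0.20 and -0.44 in the 3 comparisons, and 844 genes were called higher and 2108 lower in allogeneic against syngeneic, where the scaling used here gave 1288 and 810. The splits against control became 2723 and 3968 for syngeneic in place of 3357 and 3253, and 2453 and 5259 for allogeneic in place of 3576 and 3697. The 10 genes were all still called higher in allogeneic against syngeneic under library totals and under every other setting tried.

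**Figure D1:**
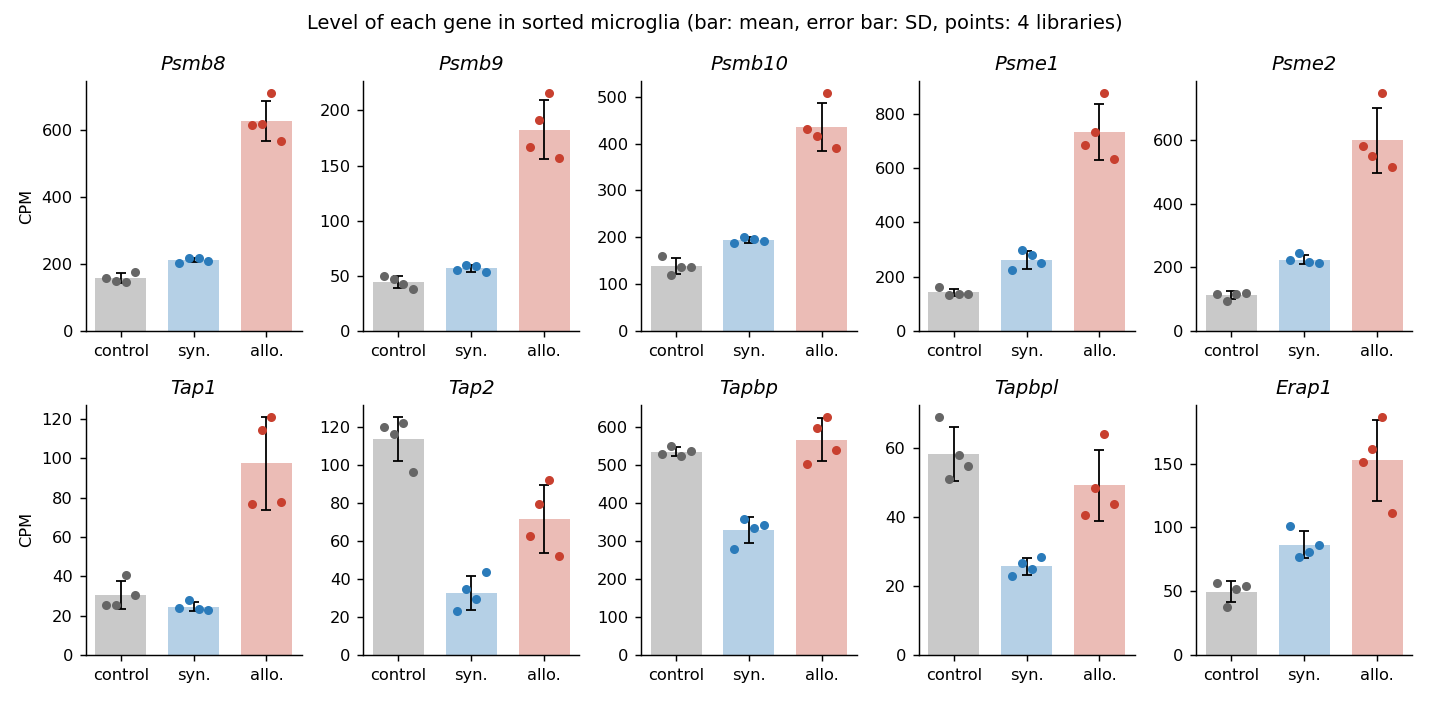
Level of each of the 10 genes in CPM (vertical axis, from 0) in control, syngeneic and allogeneic microglia; bars are means, error bars SD and points the 4 libraries of a group. Every allogeneic point lies above every syngeneic point, while Tap2, Tapbp and Tapbpl have their syngeneic points below all control points.

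Psmb8, the inducible beta 5 subunit with chymotrypsin-like cutting, had 159.5, 150.1, 146 and 178 CPM in control libraries 1 to 4, 204, 217.5, 219 and 209 in syngeneic and 616, 617, 710.3 and 567 in allogeneic libraries. The groups did not overlap at either step, and the allogeneic libraries stood far above the rest. Psmb8 rose by 1.56 (SE 0.08, edgeR adjusted p = 1.4e-10) in allogeneic against syngeneic, a 2.955-fold difference, and by 0.42 (SE 0.08, adjusted p = 1.9e-04) in syngeneic against control. The smaller rise was 0.75 with the GC and length offset and 0.25 under library totals, both called.

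Psmb9, the inducible beta 1 subunit, had 50.5, 47.2, 43.05 and 38.1 CPM in control, 55.3, 59.95, 58.9 and 53.45 in syngeneic and 167, 191, 216 and 157 in allogeneic libraries. It was the least abundant of the inducible subunits per length in every group, and its allogeneic libraries were 3.21-fold above syngeneic (log2 1.68, SE 0.11, edgeR adjusted p = 3.4e-09). Its rise in syngeneic against control was small (log2 0.35, adjusted p = 0.0142). That call was lost under library totals (log2 0.18, adjusted p = 0.156) and without control 4 (log2 0.28, adjusted p = 0.0518).

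Psmb10, the inducible beta 2 subunit with trypsin-like cutting, had 161, 119.7, 136 and 136 CPM in control, 189, 201, 197 and 192 in syngeneic and 430.3, 415.5, 508 and 389.9 in allogeneic libraries. The syngeneic libraries lay close together and apart from both other groups. Psmb10 rose by 1.16 (SE 0.09, edgeR adjusted p = 2.7e-08) in allogeneic against syngeneic and by 0.49 (SE 0.09, adjusted p = 1.9e-04) in syngeneic against control, the latter 0.33 under library totals and still called.

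The constitutive counterparts rose after syngeneic transplantation. Psmb5, Psmb6 and Psmb7 all rose in syngeneic against control, by 0.62 (SE 0.14), 0.60 (SE 0.09) and 1.14 (SE 0.10). In allogeneic against syngeneic Psmb6 rose by 0.37 (SE 0.09) and Psmb7 by 0.41 (SE 0.10), while Psmb5 was at 0.24 (95% interval -0.02 to 0.51, adjusted p = 0.265) and was not called.

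The balance between each inducible subunit and the constitutive subunit whose place it takes was read within each library, where library scaling cancels. Levels were put per length of the GENCODE reference transcript. In control, Psmb5 stood at 28.4, Psmb6 at 209 and Psmb7 at 52.1 CPM per kilobase. The shares are of transcripts, not of protein, and whether each gene was counted equally well was not tested, so shares are not compared between pairs. Psmb8 made up 77.3% ± 2.56 (SD, n = 4) of the Psmb8 and Psmb5 transcripts in control, 74.98% ± 1.02 in syngeneic and 88.3% ± 0.765 in allogeneic microglia. The ratio of Psmb8 to Psmb5 per length was 3.14, 3.41, 3.03 and 4.24 in control, 2.97, 2.86, 2.94 and 3.24 in syngeneic and 7.69, 8.045, 6.79 and 7.65 in allogeneic libraries, so the allogeneic libraries stood apart and the other groups overlapped. The ratio was 2.51-fold higher in allogeneic than in syngeneic libraries (exact two-sided permutation p = 0.0286, adjusted p = 0.0468). Syngeneic against control gave a log2 difference of -0.19 (exact p = 0.143, adjusted p = 0.198).

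Psmb9 was 13.7% ± 1.46 of its pair with Psmb6 in control, 11.7% ± 0.231 in syngeneic and 24.7% ± 2.375 in allogeneic microglia. Psmb6 therefore remained the more abundant transcript in all 12 libraries. The ratio was 2.47-fold higher in allogeneic than in syngeneic libraries (exact permutation p = 0.0286, adjusted p = 0.0468) and lower in syngeneic than in control libraries (log2 difference -0.26, exact p = 0.0286, adjusted p = 0.0468). Psmb10 was 66.8% ± 3.25 of its pair with Psmb7 in control, 56.4% ± 1.58 in syngeneic and 68.6% ± 1.31 in allogeneic microglia. Here the syngeneic libraries lay below both other groups, 1.198, 1.37, 1.36 and 1.26 against 2.13, 1.64, 2.27 and 2.104 in control. The log2 difference was -0.64 in syngeneic against control and 0.76 in allogeneic against syngeneic (both exact p = 0.0286, adjusted p = 0.0468), and 0.12 in allogeneic against control (exact p = 0.4, adjusted p = 0.45).

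These values belong to 18 ratio tests, 6 pairs in 3 comparisons, of which 11 reached 0.0286, the smallest p that 4 against 4 libraries allow. Their adjusted p of 0.0468 is shared, and with 1 fewer at that limit it would be 0.0514. With each library's trend on GC content and transcript length taken out as an offset, chosen for the ratios after seeing the data, the rises in allogeneic against syngeneic stayed at 1.485, 1.45 and 0.92 for the beta 5, beta 1 and beta 2 pairs. The falls of Psmb9 to Psmb6 and Psmb10 to Psmb7 in syngeneic against control did not hold: the log2 differences became 0.03 and -0.12 (exact adjusted p = 0.8 and 0.411). Psmb8 to Psmb5, not called in that comparison, went to 0.20 (exact adjusted p = 0.184), and Psmb10 to Psmb7 in allogeneic against control became 0.80 (adjusted p = 0.0429).

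**Figure D2:**
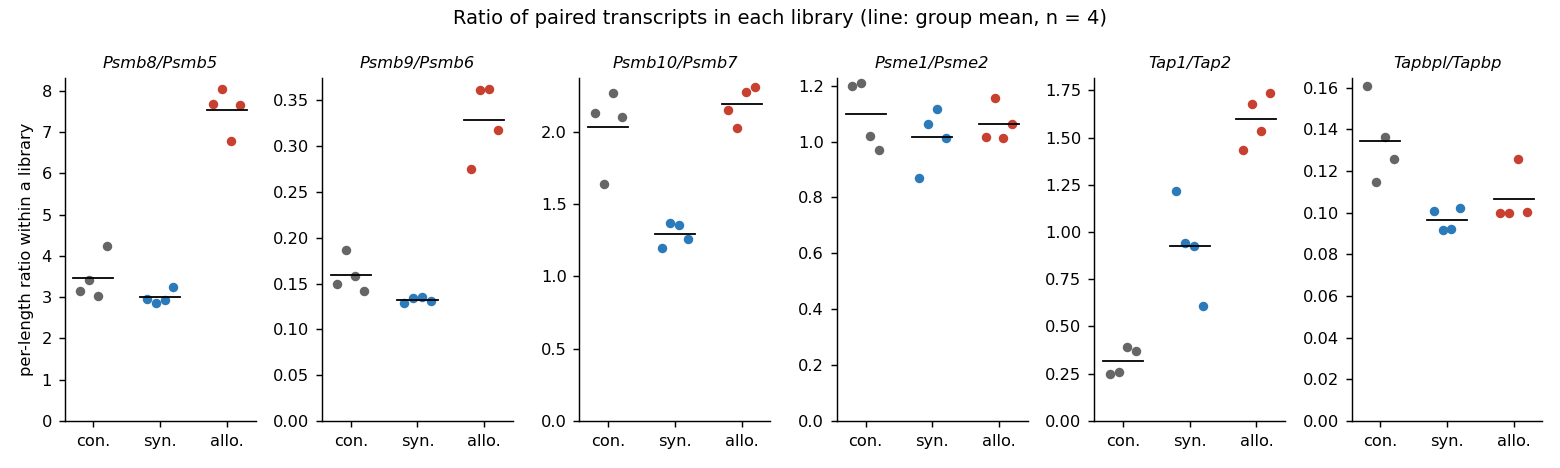
Ratio of the first to the second gene of 6 pairs within each library, per transcript length (vertical axis, from 0), in control, syngeneic and allogeneic microglia; points are libraries and lines group means. The pairs of inducible and constitutive subunits are highest in allogeneic libraries, except that Psmb10/Psmb7 overlaps control, while Tap1/Tap2 climbs from 0.316 in control to 0.924 and 1.60.

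Both genes of the PA28 activator rose at both steps, and their levels per length were close to each other in every group. Psme1, its alpha subunit, had 163, 134, 139 and 136 CPM in control, 224, 299.7, 280 and 250 in syngeneic and 684, 734, 876 and 634 in allogeneic libraries. Psme2, its beta subunit, had 118, 95.9, 117.5 and 121, 223, 244, 217 and 213.5 and 582, 549, 747 and 516 CPM. Neither gene overlapped between any pair of groups, and allogeneic 3 was the highest library for both. In allogeneic against syngeneic Psme1 rose by 1.47 (SE 0.105, edgeR adjusted p = 6.3e-09) and Psme2 by 1.415 (SE 0.105, adjusted p = 9.9e-09). In syngeneic against control they rose by 0.88 (SE 0.10) and 0.99 (SE 0.10), the largest rises among the 10 genes in that comparison. Per length, the ratio of Psme1 to Psme2 was 1.10 ± 0.122 in control, 1.015 ± 0.106 in syngeneic and 1.06 ± 0.06665 in allogeneic libraries, and none of the 3 log2 differences of 0.07, -0.11 and -0.04 was called (exact permutation adjusted p = 0.514, 0.446 and 0.686). With the GC and length offset the allogeneic against control difference was 0.22 (exact adjusted p = 0.0429). The table also lists Psme2b, a near-identical copy of Psme2, at 27.1 ± 3.065, 34.3 ± 1.76 and 72.6 ± 9.18 CPM, and reads of the pair may be split between them. Summing both, a choice made after seeing the data, gave Psme2 fold changes of 1.375 and 0.88 at the later and earlier step.

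The transporter genes diverged. Tap1 had 25.5, 25.5, 40.7 and 30.4 CPM in control, 23.9, 27.96, 23.3 and 22.8 in syngeneic and 76.8, 114, 121 and 77.5 in allogeneic libraries. Control and syngeneic overlapped, and the allogeneic libraries were all above both. Tap1 rose by 1.99 (SE 0.18, edgeR adjusted p = 1.3e-07) in allogeneic against syngeneic, the largest fold change of the 10 genes there. Its syngeneic against control value of -0.32 (95% interval -0.66 to 0.02) was not called. It was called lower under library totals (-0.49, adjusted p = 0.0238) and higher with the GC and length offset (0.47, adjusted p = 0.0381).

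Tap2, the partner subunit, had 119.9, 116, 122 and 96.2 CPM in control, 22.9, 34.6, 29.3 and 43.6 in syngeneic and 62.3, 79.2, 91.9 and 51.95 in allogeneic libraries. The syngeneic libraries were the lowest, and the allogeneic libraries lay between them and control without overlap. Tap2 fell by 1.80 (SE 0.19, edgeR adjusted p = 2.2e-07) in syngeneic against control, rose by 1.13 (SE 0.18, adjusted p = 1.8e-04) in allogeneic against syngeneic, and was at -0.67 (SE 0.18, adjusted p = 0.00403) in allogeneic against control. With the GC and length offset the fall in syngeneic was smaller (-1.04, adjusted p = 7.7e-05) and the allogeneic against control value became 0.22 (adjusted p = 0.288).

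The ratio of Tap1 to Tap2 per length rose at each step, with 0.248, 0.256, 0.39 and 0.368 in control, 1.22, 0.943, 0.927 and 0.609 in syngeneic and 1.435, 1.68, 1.535 and 1.74 in allogeneic libraries and no overlap between groups. Tap1 was 23.8% ± 4.26 of the pair in control, 47.35% ± 7.05 in syngeneic and 61.4% ± 2.06 in allogeneic microglia. The log2 differences were 1.54 in syngeneic against control, 0.83 in allogeneic against syngeneic and 2.365 in allogeneic against control (each exact permutation p = 0.0286, adjusted p = 0.0468). The GC and length offset left them at 1.55, 0.805 and 2.35, and the reference transcripts of the pair are alike in length (2953 and 3442 bases) and GC content (57.3% and 56.9%). In GENCODE M21, 212 exon bases of Tap1 overlap Psmb9 and 518 of Tap2 overlap the non-coding gene Gm15821. Likewise, the antisense gene Gm19412 shares 682 with Tapbp, Gm20496 shares 186 with Psmb8, and Nek6 shares 405 with Psmb7. All are on opposite strands, so with the strand setting not given some reads of these genes, and the ratios made from them, cannot be assigned with certainty. In addition, Mir686 shares 109 exon bases with Psmb5 on the same strand, which no strand setting separates.

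The tapasin genes fell after syngeneic transplantation, Tapbp only without the GC and length offset, and stood near control in allogeneic microglia with TMM scaling. Tapbp, which bridges class I molecules to the transporter, had 528, 548, 523 and 537 CPM in control, 279, 357, 333 and 342 in syngeneic and 502, 596, 626 and 539 in allogeneic libraries. The syngeneic libraries lay below all others, and control and allogeneic overlapped. Tapbp fell by 0.70 (SE 0.08, edgeR adjusted p = 8.5e-07) in syngeneic against control and rose by 0.79 (SE 0.08, adjusted p = 8.5e-07) in allogeneic against syngeneic. It was not called with the GC and length offset (0.07, adjusted p = 0.497). In allogeneic against control Tapbp was at 0.08 (95% interval -0.075 to 0.24), at 0.95 with the offset (adjusted p = 7.7e-09) and at -0.29 under library totals (adjusted p = 0.00389), so its direction against control turned with the scaling.

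Tapbpl had 69.0, 51.0, 57.8 and 54.7 CPM in control, 22.8, 26.5, 24.8 and 28.4 in syngeneic and 40.7, 48.4, 63.9 and 43.8 in allogeneic libraries. It fell by 1.18 (SE 0.15, edgeR adjusted p = 2.5e-06) in syngeneic against control, by 0.77 with the offset (adjusted p = 1.8e-04), and rose by 0.94 (SE 0.15, adjusted p = 1.3e-04) in allogeneic against syngeneic. In allogeneic against control it was at -0.24 (95% interval -0.53 to 0.05) and was called lower only under library totals (-0.61) and without allogeneic 3 (-0.39) among the settings tried. The ratio of Tapbpl to Tapbp was lower in syngeneic than in control libraries (log2 difference -0.47, exact permutation p = 0.0286, adjusted p = 0.0468; -0.83 with the offset). In allogeneic against control it differed by -0.33 (exact adjusted p = 0.129), and by -0.815 with the offset (exact adjusted p = 0.0429).

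Erap1, the aminopeptidase that cuts peptides to class I length, rose at each step. It had 56.1, 37.3, 51.3 and 54.1 CPM in control, 101, 76.99, 80.9 and 86.3 in syngeneic and 151, 161.5, 187 and 111 in allogeneic libraries. The 3 groups did not overlap, and allogeneic 4 was the nearest to the syngeneic libraries. Erap1 rose by 0.80 (SE 0.15, edgeR adjusted p = 2.0e-04) in syngeneic against control and by 0.82 (SE 0.15, adjusted p = 5.6e-04) in allogeneic against syngeneic. The earlier call was lost with the GC and length offset (0.36, adjusted p = 0.0707), and the Erap1 transcript is the longest of the 10 (5644 bases) with the lowest GC content (41.5%). In GENCODE M21, 834 of its exon bases overlap Cast on the opposite strand.

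The signed change from syngeneic to allogeneic was compared with that from control to syngeneic, as the later minus the earlier log2 fold change in the same fit. Of the 10 genes, this difference was above 0 for 8 and below 0 for 0 by the test (14.4% and 15.5% of all genes, 29.9% in all). For Tap2 (2.93, SE 0.34), Tapbpl (2.12, SE 0.27) and Tapbp (1.49, SE 0.145) it adds a fall and the rise that followed. With TMM scaling the fall was the larger in size for Tap2 (-1.80 then 1.13) and Tapbpl (-1.18 then 0.94). Tapbpl was not called in allogeneic against control, however. With the GC and length offset the order turned, to -1.04 then 1.26 for Tap2 and -0.77 then 0.91 for Tapbpl. Neither was then called in allogeneic against control. Tap1 had a difference of 2.31 (SE 0.32). Psmb8 (1.14, SE 0.14) and Psmb9 (1.33, SE 0.20) rose at both steps and more at the later one. With the offset the differences were 2.30 for Tap2, 1.68 for Tapbpl, 0.81 for Tapbp, 1.61 for Tap1, 0.72 for Psmb8 and 1.02 for Psmb9, all still called. The calls for Psmb10 (0.67, edgeR adjusted p = 0.00408) and Psme1 (0.59, adjusted p = 0.019) were lost with the GC and length offset (0.0988 and 0.0826), and that for Psme1 also without syngeneic 1 (0.095) or syngeneic 4 (0.0703). Psme2 had a step difference of 0.425 (adjusted p = 0.0842) and was called without control 2 (adjusted p = 0.0432), without allogeneic 4 (0.0467) or summed with Psme2b (0.0393). Erap1 was at 0.03 (95% interval -0.48 to 0.53), and at 0.53 with the offset (adjusted p = 0.173). Of the constitutive subunits, Psmb7 rose less at the later step (-0.73, SE 0.17, adjusted p = 0.00282), and Psmb5 (-0.38) and Psmb6 (-0.23) were not called.

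**Figure D3:**
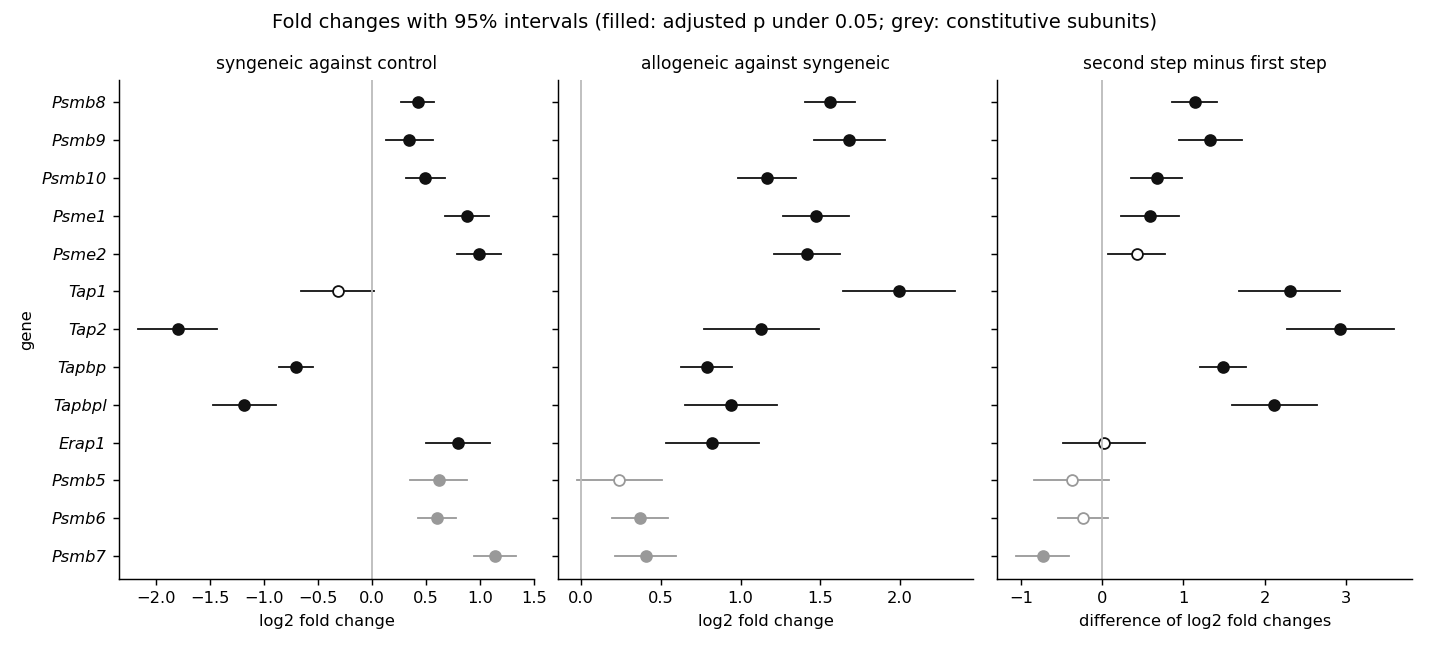
Log2 fold changes (horizontal axes) of the 10 genes and, in grey, of the constitutive subunits Psmb5, Psmb6 and Psmb7 in syngeneic against control, allogeneic against syngeneic, and the difference between these steps; bars are 95% intervals and filled points have an edgeR adjusted p under 0.05. All 10 genes lie to the right of 0 in the middle panel, while Tap2, Tapbp and Tapbpl lie to the left in the first, Tapbp moving to 0.07 with the GC and length offset.

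**Figure D4:**
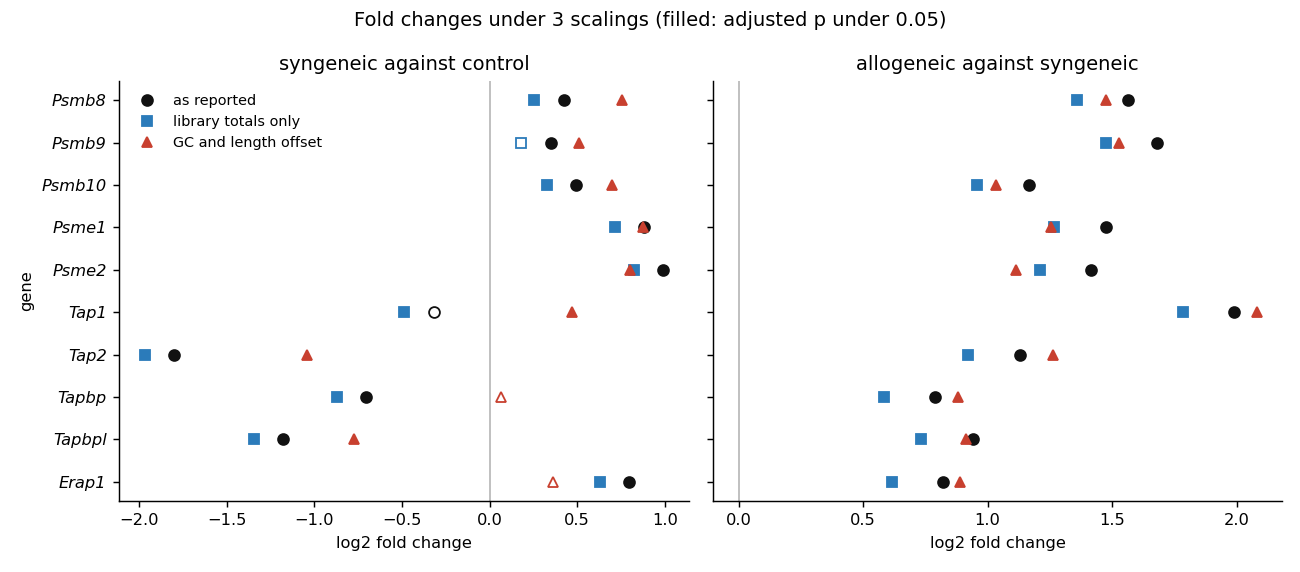
Log2 fold change of the 10 genes (horizontal axes) with TMM scaling as reported, with library totals only and with the GC and length offset; filled symbols have an edgeR adjusted p under 0.05. In allogeneic against syngeneic all 30 symbols are filled and above 0, whereas in syngeneic against control Tap1 and Tapbp change sign with the offset.

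Per transcript length, the order of the 10 genes changed between groups. In control microglia Tapbp was first at 184 ± 3.83 CPM per kilobase, above Psme1 at 128.5 ± 12.2, whose libraries overlapped those of Psme2 (117.5 ± 11.98). Erap1 (8.81 ± 1.504) and Tap1 (10.3 ± 2.42) were the lowest and overlapped. In allogeneic microglia Psme1 (658 ± 93.7) and Psme2 (622 ± 107) led and overlapped, followed by Psmb8 (385.5 ± 36.8) and Psmb10 (332.5 ± 38.75), also overlapping. Tapbp (195 ± 19.25) and Psmb9 (135 ± 19.6) came next, apart from each other and from the rest. Tap1 (32.98 ± 7.97), Erap1 (27.05 ± 5.59), Tapbpl (20.9 ± 4.38) and Tap2 (20.7 ± 5.15) were the lowest, and each overlapped the next. Among the 10 genes, those of the transporter and Erap1 were thus the scarcest transcripts in allogeneic libraries on this scale, together with Tapbpl.

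The rest of the proteasome had smaller median changes than the 10 genes in allogeneic against syngeneic. Among all genes 10.1% rose and 6.38% fell at that step, and 26.4% and 25.6% in syngeneic against control. Of the 11 other core subunits, 10 rose and 0 fell in allogeneic against syngeneic (median 0.45) and 11 rose and 0 fell in syngeneic against control (median 0.75). Psmb1 (0.62, SE 0.07), Psma5 (0.715, SE 0.10) and Psma7 (0.52, SE 0.08), structural subunits of the barrel, had the smallest p in allogeneic against syngeneic. Of 17 subunits of the 19S cap, which unfolds ubiquitin-tagged proteins, 2 rose and 1 fell at that step (median 0.09), close to the shares of all genes. In syngeneic against control 11 rose and 1 fell (median 0.53). Psmd8 (0.41) and Psmd14 (0.35) rose and Psmd3 (-0.50) fell in allogeneic against syngeneic. Of 8 other activators and assembly factors, 2 rose and 1 fell (median -0.04). Pomp, a chaperone of proteasome assembly, rose by 1.70 (SE 0.08) in syngeneic against control and 0.59 (SE 0.08) in allogeneic against syngeneic, Psmg4 by 0.75 and 1.08. Psme3, the nuclear relative of Psme1 and Psme2, rose by 1.24 (SE 0.16) and then fell by 0.55 (SE 0.16, adjusted p = 0.0219), against the direction of its relatives at that step.

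The class I chains that receive the peptides had a larger median rise than the 10 genes in allogeneic against syngeneic. Of all genes 10.1% rose and 6.38% fell in that comparison. Of 9 class I chain genes 6 were tested, and 6 rose and 0 fell in allogeneic against syngeneic (median 2.98), led by p by B2m, the light chain (1.81, SE 0.07), H2-Q4 (3.315) and H2-T23 (2.64), whose reads may be shared with related chains. Heavy chains differ between strains, and the effect of aligning BALB/c reads to mm9, from another strain, was not tested. Only the allogeneic recipients had a mismatched donor, so this effect need not be the same in the groups compared. Of 6 general chaperones of the endoplasmic reticulum, 1 rose and 0 fell: Hspa5 rose by 0.695 (SE 0.11), and Calr (0.32) and Canx (0.12) were not called, although Canx rose by 1.18 in syngeneic against control. Of 7 other peptidases of the pathway, 2 rose and 0 fell. Lap3, a cytosolic aminopeptidase, rose by 0.79 (SE 0.105) and Lnpep, an endosomal relative of Erap1, by 0.97 (SE 0.19), while Nrd1 was at 0.25 (adjusted p = 0.317). Of 15 genes of transcription control, 6 rose and 1 fell in allogeneic against syngeneic. In syngeneic against control 3 rose and 6 fell (26.4% and 25.6% of all genes). Irf1, a factor that binds response elements of class I pathway genes, fell by 0.74 (SE 0.115) from 91.7 ± 12.1 to 54.8 ± 3.31 CPM after syngeneic transplantation and stood at 268 ± 47.0 in allogeneic microglia (2.29, SE 0.12). Stat2, a signal carrier of type I interferons, fell by 0.51 in syngeneic against control and rose by 1.55 in allogeneic against syngeneic. Values with the GC and length offset were taken only for the 10 genes and the ratios. Whether changes of the other listed genes against control hold with it was not tested. Nlrc5, the class I transactivator, was named after its values were seen. It had 2.15 ± 1.53, 2.63 ± 1.64 and 33.1 ± 4.98 CPM in the 3 groups, a rise of 3.64 (SE 0.54, edgeR adjusted p = 1.3e-04) in allogeneic against syngeneic and a value of 0.30 (adjusted p = 0.656) in syngeneic against control.

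**Figure D5:**
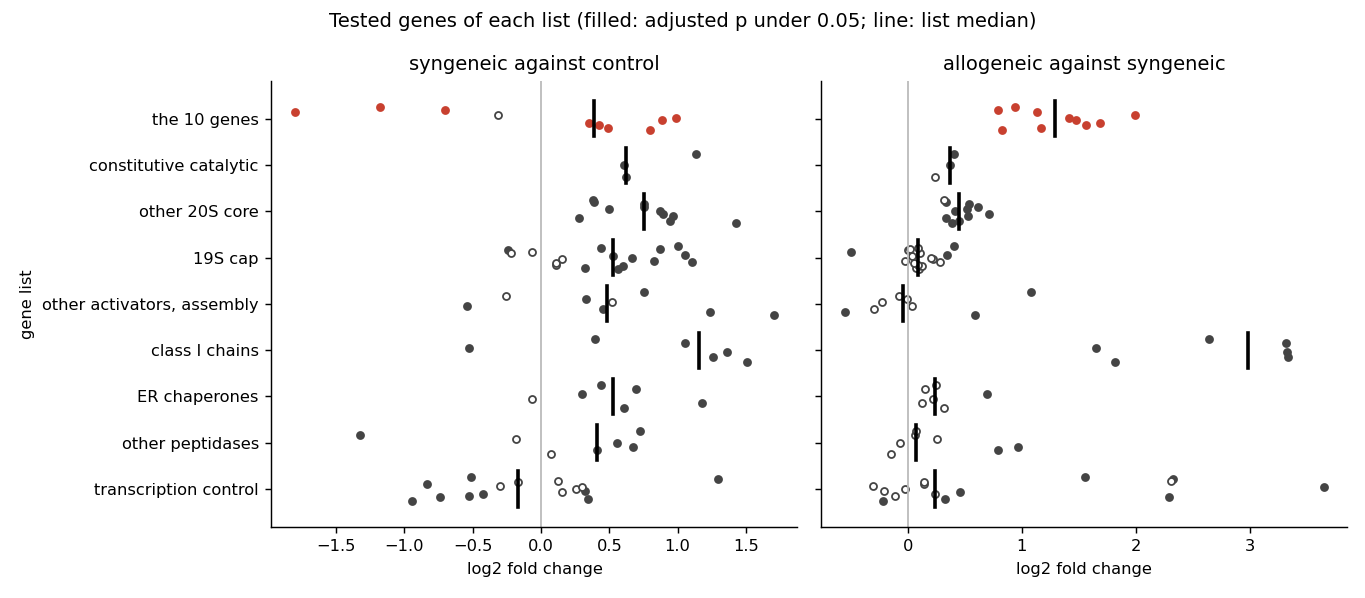
Log2 fold change (horizontal axes) of every tested gene of each pathway list in syngeneic against control and allogeneic against syngeneic; filled points have an edgeR adjusted p under 0.05 and vertical lines are list medians. The 10 genes (red) split in the first panel and have a median of 1.29 in the second, between the constitutive subunits at 0.37 and the class I chains at 2.98.

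The genes whose pattern was most like the mean of the 10 were sought among 8921 other genes, by the root mean square difference of centred log2 CPM over the 12 libraries. They were Ctsc (0.11), H2-T24 (0.15), Samhd1 (0.15), Sp140 (0.16), Ctsz (0.16) and Ifi30 (0.17). The 10 genes themselves lay 0.23 (Psmb10) to 0.92 (Tap2) from their own mean. The 6 were picked for their small distance, so the distances of the 10 and of the 6 are not compared. Ctsc, a lysosomal dipeptidase, had 681, 660.5 and 1881 CPM in control, syngeneic and allogeneic libraries on average. Its log2 fold changes were -0.04 in syngeneic against control and 1.51 in allogeneic against syngeneic. The mean of the 10 (centred log2 CPM of -0.43 in control, -0.43 in syngeneic and 0.86 in allogeneic libraries) averages 6 genes that rose and 3 that fell in syngeneic against control, so it is not the course of most of them.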

How the data were processed

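Per the labels' protocols, the authors extracted RNA with the Picopure kit and kept samples with an RNA integrity value of at least 8. The submitters' processing notes name Trimmomatic 0.36, STAR 2.5.2b and the mouse build mm9. The authors deposited whole-number read counts per gene symbol. The sources used here do not name the counting tool, the annotation or the strand setting. The mm9 sequence is from another strain than BALB/c, and 5 of the 10 genes (Psmb8, Psmb9, Tap1, Tap2 and Tapbp) lie in the polymorphic MHC region. The effect of this on their counts was not tested, nor whether it differed between groups.

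Genes were filtered with filterByExpr (minimum count 10) and scaled by TMM. All 12 libraries entered 1 robust quasi-likelihood model with a mean for each group in edgeR 4.0.16 (R 4.3.3), with Benjamini-Hochberg adjustment. Ratios of paired genes were tested by exact two-sided permutation over libraries (scipy 1.17.1), as log2 of counts plus 0.5. Lengths and GC content came from GENCODE M21 transcripts, another build, matched by symbol or synonym for 12606 of 12695 tested genes. The offset is a loess fit (span 0.3) of each library's deviations on both. The method was tested on simulated counts. Alternatives were RLE factors, library totals, no filter, 1 CPM in 4 libraries, DESeq2 1.42.0, only the compared groups, the replicate number as a block, the offset, both together, another pseudocount (5), and each library left out.

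The 10 genes and the lists were chosen with earlier results of these data known. Named genes are all 10, the 3 genes with the smallest p in allogeneic against syngeneic from each other pathway list, and the 6 most alike in pattern among genes whose log2 CPM averaged 2 or more; 1 gene so chosen is not reported here. That the 4 libraries of a group came from separate mice is stated by the labels.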

Additional observations from a re-analysis of the deposited data

Results flagged for a closer look

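In 48 groups of 4 libraries (the CPM of the 10 genes and the 6 log2 ratios in 3 groups each), 3 held 1 library far from the other 3, where chance flags about 1 group in 20. Psme1 was at 163 CPM in control 1 against 134 to 139 in the other control libraries. Psme2 was at 95.9 CPM in control 2 against 117.5 to 121 in the others. The log2 ratio of Tapbpl to Tapbp counts was -3.29 in allogeneic 3 against -3.63 to -3.62 in the other allogeneic libraries.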

How the results depend on the processing

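In allogeneic against syngeneic, all 10 genes kept their direction and call under every setting run. Against control, results turned mainly with the GC and length offset. With it, syngeneic against control reversed for Tap1 (0.47) and Tapbp (0.067), allogeneic against control for Tap2 (0.22) and Tapbpl (0.14), leaving 0 genes lower in place of 1. The Erap1 step difference was 0.53 with the offset. With the replicate block added the values were 0.49 (Tap1), 0.065 (Tapbp), 0.21 (Tap2) and 0.13 (Tapbpl), again with 0 genes lower in allogeneic against control. The Erap1 step difference was then 0.51. Ratio differences with the offset were 0.20 (Psmb8/Psmb5), 0.026 (Psmb9/Psmb6), -0.12 (Psmb10/Psmb7) and 0.064 (Psme1/Psme2) in syngeneic against control, and 0.80 (Psmb10/Psmb7), 0.22 (Psme1/Psme2) and -0.815 (Tapbpl/Tapbp) in allogeneic against control. The cause was not tested, and fold changes of all genes fell with GC content (Spearman rho -0.305 in syngeneic and -0.283 in allogeneic against control, across genes, which are not independent). Library totals reversed Tapbp in allogeneic against control (-0.29), gave 3 genes lower there, and put the step difference of Erap1 at -0.014. Leaving out 1 library gave 1 to 2 genes lower in allogeneic against control, and -0.087 to 0.196 for the Erap1 step difference, below 0 without control 1 or 4, syngeneic 2 or 3, or allogeneic 2 or 3. Same-numbered libraries of different groups did not deviate together (r -0.008 to 0.039 over 12 pairs), so the labels' numbers were not taken as pairing. The replicate block alone changed no call of the 10 genes, with 1215 genes higher and 787 lower in all in allogeneic against syngeneic. For ratios the block leaves the differences as they are, and sign flips of 4 pairs cannot go below p = 0.125, nor 3 against 4 libraries below 0.0571 by exact permutation, so these say nothing of stability.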
